A study of Mus musculus with 8 samples.

Results

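The CXC chemokines are small secreted proteins, named after a motif of cysteines near their start, that guide leukocytes along gradients. The 10 members described here were every row of the deposited count and FPKM tables for Cxcl1, Cxcl2, Cxcl3, Cxcl5, Cxcl9, Cxcl10, Cxcl12, Cxcl13, Cxcl14 and Cxcl16, chosen by gene symbol from the 17353 genes in the tables. All 10 were found and all passed the filter on low counts, which left 13381 genes to test. Poly(A) RNA of the colonic mucosa was sequenced from 8 male wild-type C57BL/6J mice on day 7, 2 animals in each of 4 groups. Kuiyangling mice drank 3% dextran sulfate sodium (DSS), a sulfated polymer toxic to the lining of the colon, and had enemas of the herbal formula Kuiyangling at 10 g/kg. Mesalazine mice drank DSS and had enemas at 50 mg/kg of mesalazine, an aminosalicylate prescribed for ulcerative colitis. DSS model mice drank DSS and had saline enemas, and controls had saline enemas without DSS. Each enema had a volume of 0.2 ml. DSS colitis is an acute chemical injury, which limits it as a model of chronic human disease.

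CXC chemokines act through G protein-coupled receptors on distinct leukocytes. Cxcl1, Cxcl2, Cxcl3 and Cxcl5 bind Cxcr2 and draw neutrophils, and epithelial, stromal and myeloid cells switch them on through NF-kB when they sense interleukin-1, tumor necrosis factor or bacterial products. Cxcl9 and Cxcl10 are induced by interferons and draw T cells and natural killer cells through Cxcr3. Cxcl12, Cxcl13 and Cxcl14 are largely homeostatic. Cxcl12 from stroma and endothelium retains Cxcr4-bearing cells, Cxcl13 draws Cxcr5-bearing B cells into follicles, and Cxcl14 is made by epithelium and fibroblasts. Cxcl16 is a membrane-anchored ligand of Cxcr6 that Adam10 and Adam17 can shed.

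Promoters of 8 of the 10 members were found in a RefSeq table (GRCm38.p6), and those of Cxcl5 and Cxcl16 were not. The windows shown are those of the 3 neighbouring Cxcr2 ligands, which hold the same 11-letter NF-kB motif, and of Cxcl10, which holds both an NF-kB motif and an interferon motif. Capitals mark the matches. Each sequence reads 5′ to 3′ on the gene's strand and ends at the base before the annotated start. The windows are chr5:90891125-90891244 (+) for Cxcl1, chr5:90903779-90903898 (+) for Cxcl2, chr5:90785981-90786100 (+) for Cxcl3 and chr5:92348890-92349139 (-) for Cxcl10.
Cxcl1: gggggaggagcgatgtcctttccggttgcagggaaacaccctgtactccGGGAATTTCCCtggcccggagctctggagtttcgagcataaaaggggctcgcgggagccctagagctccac
Cxcl2: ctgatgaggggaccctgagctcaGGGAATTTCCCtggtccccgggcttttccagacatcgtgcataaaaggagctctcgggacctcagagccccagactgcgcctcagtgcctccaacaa
Cxcl3: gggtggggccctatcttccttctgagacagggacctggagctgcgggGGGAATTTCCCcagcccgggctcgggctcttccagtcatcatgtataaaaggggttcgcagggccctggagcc
Cxcl10: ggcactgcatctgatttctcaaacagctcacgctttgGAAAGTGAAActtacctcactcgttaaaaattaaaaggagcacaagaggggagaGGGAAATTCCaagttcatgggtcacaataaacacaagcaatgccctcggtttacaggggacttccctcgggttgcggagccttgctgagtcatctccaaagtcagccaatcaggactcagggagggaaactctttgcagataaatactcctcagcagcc

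A kappaB motif, searched on both strands as GGGA and TTCC with any 2 bases between in the 250 bases before the start, was found in 4 of the 8 member promoters, those of Cxcl1, Cxcl2, Cxcl3 and Cxcl10, and in 1.21% of all 32817 promoters in the table. The longer form GGGAATTTCCC, read from the Cxcl1 promoter, was searched after the sequences had been seen. It was found in Cxcl1, Cxcl2 and Cxcl3, and in 14 promoters of the table in all (0.0427%). Its last base lay 61 bases before the start in Cxcl1, 87 in Cxcl2 and 63 in Cxcl3, and matches to the shorter motif on the 2 strands overlap within it. An interferon-stimulated response element (ISRE), searched as GAAA and GAAA with any 2 bases between, was found in Cxcl10, where it begins 213 bases before the start, and in Cxcl14, against 2.97% of all promoters. The gamma-activated site, searched as TTC and GAA with any 3 bases between, was found only in Cxcl14 among the 8, against 7.01% of all promoters. These are matches of letters, and no factor binding was measured.

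**Figure D1:**
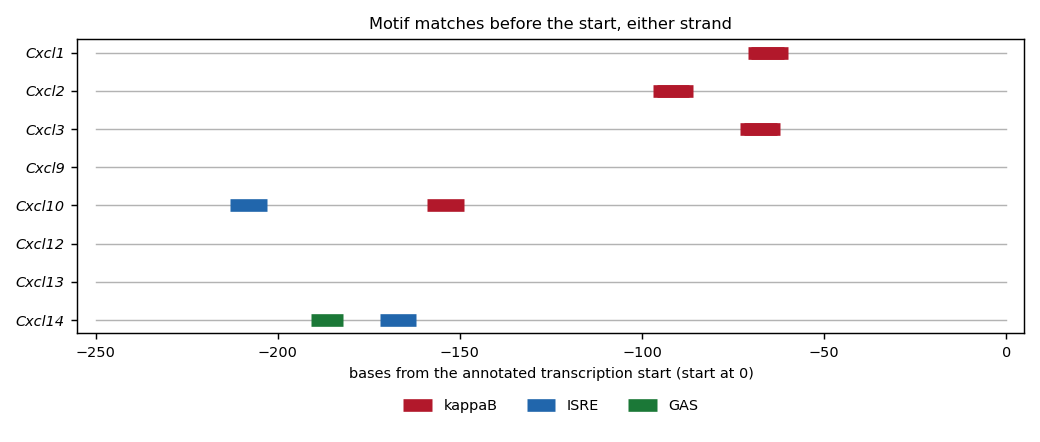
Motif matches in the 250 bases before the annotated start (x axis, bases; start at 0) of the 8 members with a promoter in the table, on either strand, with colour for the motif. Cxcl1, Cxcl2 and Cxcl3 carry a kappaB match within 100 bases of the start, Cxcl10 carries a kappaB and an ISRE match further out, and the windows of Cxcl9, Cxcl12 and Cxcl13 hold none of the 3 motifs.

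The libraries held 15560946 to 17843715 counts and 15217 to 15689 detected genes, so 3 counts, the limit that a count of 0 allows, equal 0.149 to 0.212 CPM (counts scaled to the size of the library). Markers of colon epithelium summed to 30600 to 41000 CPM in all 8 libraries, with none of the 12 at 0, as the label of mucosa requires. Control 2 stood apart: its 14 B cell and follicle markers summed to 103 CPM, against 10.8 to 14.2 CPM in the other 7 libraries, and its 13 T and NK cell markers to 110 CPM, against 27.8 to 66 CPM. Mesalazine 1 also stood apart, with 12.7% of its counts in ribosomal protein genes, against 3.35% to 6.68% in the others. Libraries also differed by gene length. The Spearman correlation of length with deviation from the mean library was -0.534 in mesalazine 1 and -0.433 in DSS model 2. It was 0.385 in Kuiyangling 2 and 0.444 in control 1. Members ran from 955 bases (Cxcl1) to 7161 bases (Cxcl12), and the gene length correction used below fits this trend. In such bulk RNA, fewer cells of a type and less RNA per cell cannot be told apart.

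The members called in the DSS model were Cxcr2 ligands, and all 10 had log2 differences above 0, of which Cxcl13 and Cxcl16 were below 0 with a gene length correction and Cxcl9, Cxcl10, Cxcl13 and Cxcl16 without DSS model 2. Cxcl2, Cxcl3 and Cxcl5 were higher in the DSS model than in controls at an adjusted p under 0.05, no member fell, and Cxcl1 missed the threshold. Kuiyangling and mesalazine mice had lower levels of Cxcl1 and Cxcl2 than DSS model mice, without passing the test. Mean Cxcl3 was lower and mean Cxcl5 higher in Kuiyangling than in mesalazine mice, also without passing. Tests were edgeR quasi-likelihood tests with Benjamini-Hochberg adjustment over all 13381 genes.

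Cxcl2, the macrophage inflammatory protein that recruits neutrophils, had 2.17 and 0.934 CPM in Kuiyangling mice, 3.25 and 2.8 CPM in mesalazine mice, 10.1 and 12.5 CPM in DSS model mice and 0.0495 and 0.0616 CPM in controls. Every DSS-drinking library was above both controls, and both DSS model libraries were above all 4 treated ones. The DSS model had 349 counts in all and the controls 2, a ratio of 205 with a 95% exact counting interval of 56.3 to 1700 (adjusted p = 0.00273). That interval covers counting error only.

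Cxcl5, a ligand made largely by epithelium and stroma in inflamed gut, had 4.21 and 3.58 CPM in Kuiyangling mice, 1.41 and 1.17 CPM in mesalazine mice, 4.28 and 6.56 CPM in DSS model mice and 0 counts in both controls. The mesalazine libraries lay below the other 4 DSS-drinking libraries, and the Kuiyangling libraries came close to the lower DSS model library. With the 2 controls together set to 3 counts, the DSS model was at least 65.4-fold higher (adjusted p = 0.00611). Controls with 0 counts allow up to 0.149 and 0.185 CPM.

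Cxcl3, a close copy of Cxcl2 with the same receptor, had 0.742 and 0.519 CPM in Kuiyangling mice, 3.4 and 1.23 CPM in mesalazine mice, 2.83 and 1.72 CPM in DSS model mice and 0 counts in controls. Mesalazine and DSS model libraries overlapped, and both Kuiyangling libraries lay below them. The DSS model was at least 27.8-fold higher than controls (adjusted p = 0.0472). This call was lost without either library of Kuiyangling, of the DSS model or of the controls, at adjusted p-values of 0.0669 to 0.206 in these 6 fits. It was also lost with only the 4 libraries compared (0.0557), with a gene length correction (0.0529) and by limma on log2(FPKM + 1) (0.0841). Cxcl2 and Cxcl3 transcripts share an exact run of 110 bases, so the split of reads between these 2 genes is uncertain.

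Cxcl1, the keratinocyte chemoattractant, had 2.1 and 1.4 CPM in Kuiyangling mice, 2.33 and 1.23 CPM in mesalazine mice, 3.71 and 8.62 CPM in DSS model mice and 0.198 and 0.555 CPM in controls. The 4 groups fell into 3 levels, with the treated groups overlapping each other between the DSS model and the controls. The log2 difference between DSS model and controls was 4.04 (SE 0.71; adjusted p = 0.0603). It passed without the filter on low counts (adjusted p = 0.000221), by DESeq2 (1.55e-05), by limma on log2(FPKM + 0.1) (0.0435), without mesalazine 1 (0.0438) and without mesalazine 2 (0.0392), and in the other 12 alternatives it did not.

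**Figure D2:**
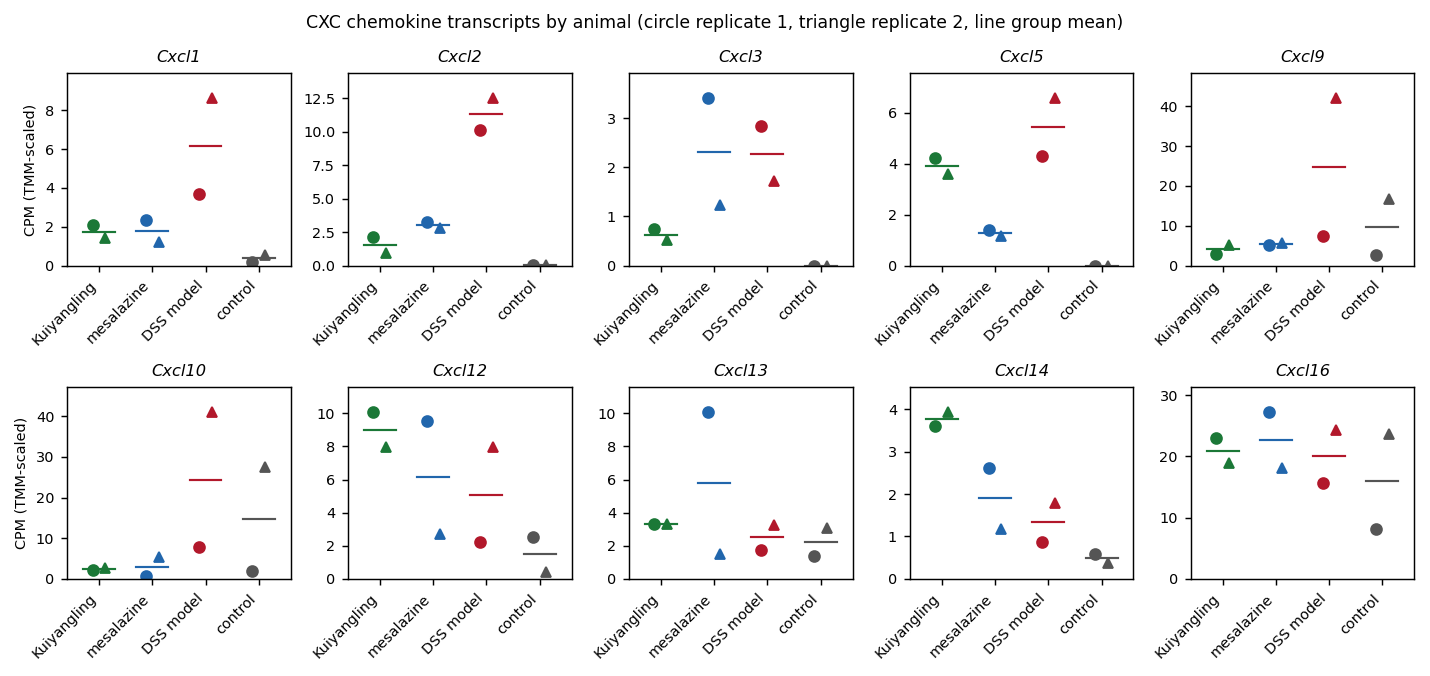
CPM of each of the 10 members (y axes, linear, each with its own range) in the 8 animals, by group; circles are replicate 1, triangles replicate 2 and lines group means. Cxcl2 and Cxcl5 are near or at 0 in controls, Cxcl9 and Cxcl10 are high in DSS model 2 and control 2, and Cxcl14 is highest in the Kuiyangling animals.

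Over the whole family, 3 of 10 members were called higher in the DSS model than in controls and 0 lower, where 0.194% of all genes tested were called higher and 0.0523% lower (0.247% in either direction). The libraries of 5 members did not overlap, all higher in the DSS model, where 27.1% of all genes tested were higher and 26.3% lower without overlap. The median log2 difference was 1.59 for the members, also with Cxcl3 and Cxcl5 set to their bounds, and -0.04 for all genes tested. The 4 Cxcr2 ligands had under 10 counts in each control, so they passed the filter on low counts through the DSS-drinking groups, and these counts are a description of the family. Without control 2, no member was called, with Cxcl2 and Cxcl5 each at an adjusted p of 0.0617.

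With Kuiyangling, Cxcl2 was at 1.55 ± 0.871 CPM, against 11.3 ± 1.74 CPM in the DSS model (SD, n = 2 each), a log2 difference of -2.87 (SE 0.47; edgeR adjusted p = 0.82). It was called when 4 libraries were fitted alone (adjusted p = 0.0379), without the filter on low counts (0.0147) and by DESeq2 (0.000902). Cxcl1 was at 1.75 ± 0.497 CPM with Kuiyangling and 6.16 ± 3.47 CPM in the DSS model (log2 difference -1.81, SE 0.61; edgeR adjusted p = 0.996). Cxcl3 was at 0.631 ± 0.158 CPM with Kuiyangling and 2.28 ± 0.782 CPM in the DSS model (-1.85, SE 0.68). Cxcl5 was at 3.89 ± 0.443 CPM with Kuiyangling and 5.42 ± 1.62 CPM in the DSS model (-0.48, SE 0.45), an estimate about the size of its error.

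No member was called between Kuiyangling and the DSS model, where 0% of genes were called. At an unadjusted p under 0.05, 6 members and 476 genes (3.56%) passed in the edgeR test, and DESeq2 called 1 member. The 6 were Cxcl1, Cxcl2, Cxcl3, Cxcl9 and Cxcl10, all lower with Kuiyangling, and Cxcl14, which was higher. Cxcl5 was not among them. The libraries of 6 members, Cxcl1, Cxcl2, Cxcl3, Cxcl5, Cxcl9 and Cxcl10, lay wholly below the DSS model, where 21.1% of genes did so. For Cxcl5 this was a near tie, at 4.21 CPM in Kuiyangling 1 and 4.28 CPM in DSS model 1. In FPKM its groups overlapped, at 2.56 in Kuiyangling 1 and 2.43 in DSS model 1. Cxcl13 and Cxcl14 lay wholly above the DSS model, where 21.9% of genes did so. The median log2 difference was -1.14 for the members and 0 for all genes.

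With mesalazine, Cxcl5 was at 1.29 ± 0.175 CPM, against 5.42 ± 1.62 CPM in the DSS model (log2 difference -2.07, SE 0.48), and Cxcl2 at 3.03 ± 0.321 CPM, against 11.3 ± 1.74 CPM (-1.90, SE 0.45). Both had an edgeR adjusted p of 0.503, and Cxcl2 was called by DESeq2 (0.0452) and without the filter (0.0471). Cxcl1 was at 1.78 ± 0.784 CPM with mesalazine and 6.16 ± 3.47 CPM in the DSS model (-1.79, SE 0.61). Cxcl3 was at 2.31 ± 1.53 CPM with mesalazine and 2.28 ± 0.782 CPM in the DSS model, a log2 difference of 0.01 (SE 0.63) that became -0.90 without mesalazine 1. No member was called, where 0% of genes were called. At an unadjusted p under 0.05, 5 members and 735 genes (5.49%) passed in the edgeR test, and DESeq2 called 1 member. The libraries of 5 members, Cxcl1, Cxcl2, Cxcl5, Cxcl9 and Cxcl10, lay wholly below the DSS model, where 13.8% of genes did so, and none lay wholly above, where 14.0% of genes did so. Both treatments were set against the same DSS model libraries, so their differences from it are not independent.

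**Figure D3:**
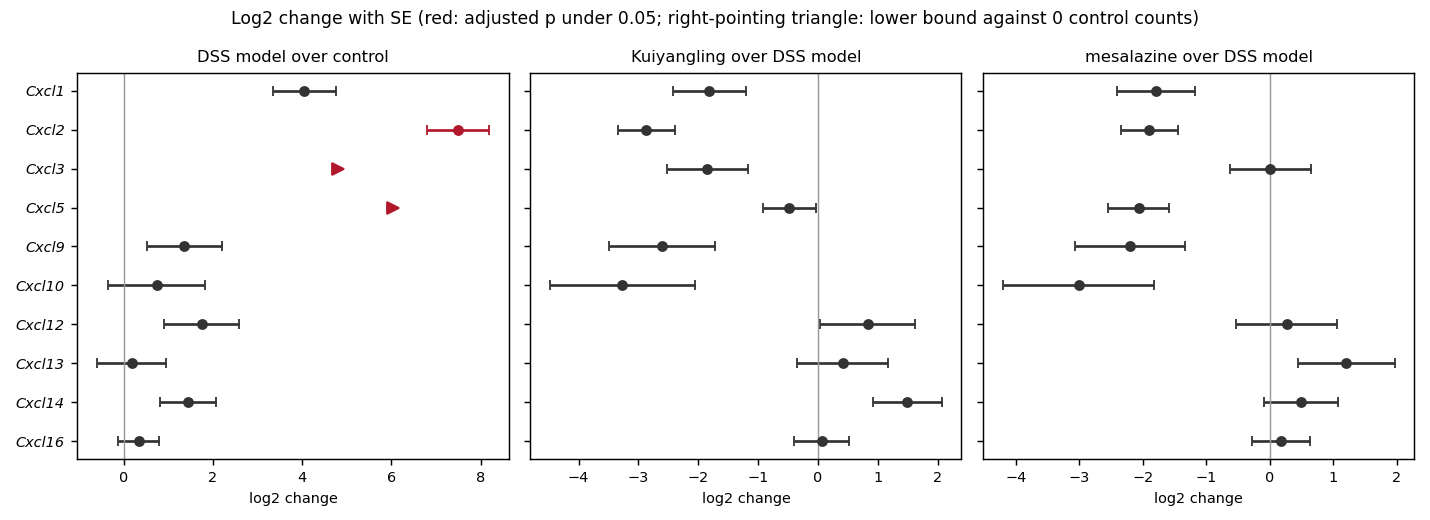
Log2 difference with SE (x axes) of each member (rows) between DSS model and controls, Kuiyangling and DSS model, and mesalazine and DSS model; red marks an edgeR adjusted p under 0.05, and the triangles for Cxcl3 and Cxcl5 are lower bounds against 0 counts in controls. Cxcl2 lies furthest right of the fitted values in the first panel at 7.50, and Cxcl10 furthest left in the panels for Kuiyangling and mesalazine at -3.27 and -3.01.

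Compared directly, Kuiyangling mice had more Cxcl5 than mesalazine mice, 3.89 ± 0.443 against 1.29 ± 0.175 CPM (log2 difference 1.59, SE 0.48), and less Cxcl3, 0.631 ± 0.158 against 2.31 ± 1.53 CPM (-1.86, SE 0.68). In neither gene did the libraries overlap, and neither passed the test (edgeR adjusted p = 0.999 for both; unadjusted p = 0.00899 for Cxcl5 and 0.0236 for Cxcl3, edgeR quasi-likelihood model). Cxcl14, at means of 3.77 against 1.89 CPM, also lay wholly above in Kuiyangling mice, and Cxcl2 (1.55 against 3.03 CPM) and Cxcl9 (4.06 against 5.38 CPM) wholly below. For Cxcl9 this was a near tie, with Kuiyangling 2 and mesalazine 1 both at 5.09 CPM. In FPKM the groups overlapped for Cxcl9, at 1.91 in Kuiyangling 2 and 1.46 in mesalazine 1. Over all genes 0% were called, 10.6% lay wholly higher and 11.6% wholly lower. At an unadjusted p under 0.05, 2 members and 254 genes (1.90%) passed, and DESeq2 called no member.

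The make-up of the Cxcr2 ligands was read per length, in FPKM, which scale counts to gene length and library total. The 4 ligands summed to 7.54 and 5.47 FPKM in Kuiyangling mice, 8.04 and 6.03 FPKM in mesalazine mice, 17.4 and 25.4 FPKM in DSS model mice and 0.286 and 0.644 FPKM in controls. The 2 treated groups therefore had similar sums below both DSS model animals. Cxcl5 made up 34% and 43.2% of the sum in Kuiyangling mice, 8.86% and 12.2% in mesalazine mice, 13.9% and 15.1% in DSS model mice and 0% in controls. Cxcl2 made up 26.8% and 17.2% with Kuiyangling, 31.2% and 44.8% with mesalazine, 50.1% and 44.1% in the DSS model and 18.1% and 8.92% in controls. Cxcl3 made up 9.76% and 10.2% with Kuiyangling, 34.6% and 20.8% with mesalazine, 15% and 6.45% in the DSS model and 0% in controls. The leading ligand by mean share was thus Cxcl5 in Kuiyangling mice, Cxcl2 in mesalazine and DSS model mice, and Cxcl1, on 4 and 9 counts, in controls. These shares were compared by value, with no test.

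**Figure D4:**
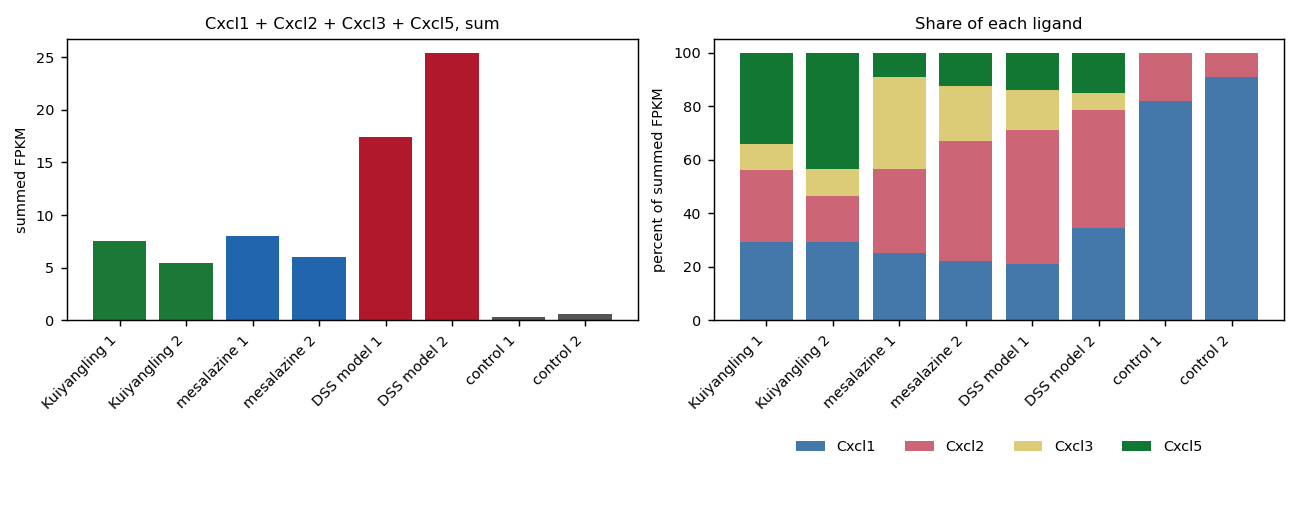
Summed FPKM of Cxcl1, Cxcl2, Cxcl3 and Cxcl5 in each animal (left) and the percentage each ligand made of that sum (right). Sums of 5.47 to 8.04 FPKM in treated animals lie below the DSS model animals at 17.4 and 25.4, and the Cxcl5 share is 34% and 43.2% in the Kuiyangling animals against at most 15.1% in the others.

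Against controls, the treated mice still had more Cxcr2 ligand RNA, though not every ligand was called. Cxcl1 lay wholly above controls with both treatments without passing the test. Its log2 difference was 2.23 with Kuiyangling (edgeR adjusted p = 0.273) and 2.25 with mesalazine (0.136). Kuiyangling mice had 53 counts of Cxcl2 against 2 in controls, a ratio of 27.2 (95% counting interval 7.18 to 231; edgeR adjusted p = 0.0429), and Cxcl5 at least 46.9-fold higher (adjusted p = 0.0158). Cxcl3 was at least 7.54-fold higher with Kuiyangling (adjusted p = 0.118). Mesalazine mice had 94 counts of Cxcl2 against 2, a ratio of 54.7 (14.7 to 459; edgeR adjusted p = 0.0216), Cxcl3 at least 26.8-fold higher (adjusted p = 0.0328) and Cxcl5 at least 15.5-fold higher (adjusted p = 0.027). The counts were 2 of 10 members for Kuiyangling, where 0.187% of genes were called higher (0.239% in either direction), and 3 of 10 for mesalazine, where 0.433% were called higher (0.673% in either direction). The libraries of 7 and 6 members lay wholly above controls with Kuiyangling and with mesalazine, where 25.9% and 23.6% of genes did so. Without control 2 both counts were 0, and without Kuiyangling 1 or mesalazine 1 the count of that treatment was 0. Without mesalazine 2, the mesalazine count was 6. These comparisons share the controls with that of the DSS model. Here too the Cxcr2 ligands passed the filter on low counts through the DSS-drinking groups, so the counts of called members are a description.

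The receptor Cxcr2 was close to its limit of detection. It had 0 and 0 counts in Kuiyangling mice, 0 and 3 in mesalazine mice, 9 and 16 in DSS model mice and 0 and 0 in controls, too few to enter the test. The DSS model was at least 9.79-fold higher than controls, and Kuiyangling mice at least 9.53-fold lower than the DSS model, both with the group at 0 set to 3 counts. The ratio of mesalazine mice to the DSS model was 0.119, with a 95% counting interval of 0.023 to 0.39. Cxcl1, Cxcl2 and the receptor thus had their highest levels in the same 2 DSS model animals. Cxcl5 did so in CPM but not in FPKM, and Cxcl3 was highest in mesalazine 1.

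Some neutrophil markers moved with these ligands. Of 17 markers, 14 were tested, and 4 were called higher in the DSS model than in controls by edgeR: S100a8, S100a9, Clec4e and Retnlg, where 0.194% of all genes tested were called higher. S100a9, the calprotectin subunit of neutrophil cytosol, had 3.65 and 2.23 CPM in Kuiyangling mice, 10.9 and 2.86 CPM in mesalazine mice, 10.9 and 21 CPM in DSS model mice and 0 counts in controls. The 17 summed to 254 to 265 CPM with Kuiyangling, 189 to 1070 with mesalazine, 312 to 344 in the DSS model and 202 to 318 in controls, and 5 and 8 of them were at 0 in the controls. Ly6g and Cd177 carried most of that sum. Left out after their values were seen, they gave sums of 14.4 and 9.76 CPM in Kuiyangling mice, 38.7 and 13.2 in mesalazine mice, 40.6 and 70.2 in DSS model mice and 1.24 and 3.45 in controls. Any tested marker at 0 counts in both controls, as S100a9 was, passed the filter on low counts through the DSS-drinking groups. The count of 4 called markers is therefore a description of this list. The part of neutrophils in the ligand levels was not tested. The genes nearest to Cxcl2 in pattern, Retnlg and S100a8, are both in this marker list.

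Of the inducers of the Cxcr2 ligands, Il1b rose. Of 17 tested genes of the IL-17, IL-1, TNF and NF-kB pathways, 1 was called higher in the DSS model than in controls and 0 lower. Of all genes, 0.194% were called higher and 0.0523% lower. The list as a whole was evenly split, with 9 log2 differences above 0, 8 below and a median of 0.05. Libraries of 6 of the genes lay wholly above controls and of 3 wholly below. Il1b, the interleukin matured by the inflammasome, had 3.34 and 5.71 CPM in Kuiyangling mice, 7.5 and 5.08 CPM in mesalazine mice, 13.7 and 36.1 CPM in DSS model mice and 0.594 and 1.17 CPM in controls. Its groups lay in the same order as those of Cxcl1, with both DSS model animals on top and both controls at the bottom. The log2 difference between DSS model and controls was 4.83 (SE 0.61; edgeR adjusted p = 0.0168), lost without DSS model 2 (0.0658) or control 2 (0.108). Il1a, the alarmin of dying epithelium, was at 5.30 (SE 0.93; edgeR adjusted p = 0.0603) and Tnf was 2.82-fold higher in the fit (adjusted p = 0.138). Tnf had 4.27 and 3.37 CPM with Kuiyangling, 3.61 and 2.63 CPM with mesalazine, 14.3 and 9.94 CPM in the DSS model and 3.96 and 4.62 CPM in controls, so only the DSS model stood high. None of the 17 was called between a treatment and the DSS model. Libraries of 11 of them lay wholly below it with Kuiyangling, where 21.1% of all genes did so, and of 10 with mesalazine, where 13.8% did so. Il17a, the T cell cytokine, had at most 4 counts in any library.

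The interferon-induced ligands followed single animals more than groups. Cxcl9 had 3.03 and 5.09 CPM in Kuiyangling mice, 5.09 and 5.66 CPM in mesalazine mice, 7.48 and 42 CPM in DSS model mice and 2.62 and 16.8 CPM in controls. Cxcl10 had 2.29 and 2.75 CPM in Kuiyangling mice, 0.637 and 5.31 CPM in mesalazine mice, 7.73 and 41.1 CPM in DSS model mice and 1.98 and 27.4 CPM in controls. DSS model 2 and control 2 were the highest for both genes, and the DSS model and controls overlapped.

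Between DSS model and controls the log2 difference was 1.35 for Cxcl9 (SE 0.84; edgeR adjusted p = 0.438) and 0.74 for Cxcl10 (SE 1.09; 0.747). Without control 2 these were 3.23 and 3.62, and without DSS model 2 they were -0.36 and -0.91, so the direction changed with DSS model 2. Without control 1, Cxcl10 was also below 0, at -0.18, and Cxcl13 and Cxcl16 were at -0.31 and -0.25. Both treatments lay wholly below the DSS model. Kuiyangling stood at -2.60 for Cxcl9 (SE 0.88) and -3.27 for Cxcl10 (SE 1.21), with an edgeR adjusted p of 0.996 for both. Without DSS model 2 these were -0.88 and -1.62. Mesalazine stood at -2.20 for Cxcl9 (SE 0.87) and -3.01 for Cxcl10 (SE 1.19; edgeR adjusted p = 0.809 for both), and at -0.48 and -1.36 without DSS model 2. Against controls, Kuiyangling was at -1.25 and -2.53 and mesalazine at -0.85 and -2.27. Without control 2 these 4 values had the opposite sign, at 0.63 and 0.35 for Kuiyangling and 1.03 and 0.61 for mesalazine.

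The ratio of Cxcl10 to Cxcl9, in FPKM, was 1.99 and 1.43 in Kuiyangling mice, 0.33 and 2.48 in mesalazine mice, 2.73 and 2.58 in DSS model mice and 1.99 and 4.3 in controls. Cxcl10 was the more abundant per length in 7 of 8 animals, mesalazine 1 being the exception. Ifng, the interferon that induces both, had 1 and 0 counts with Kuiyangling, 1 and 0 with mesalazine, 4 and 51 in the DSS model and 2 and 18 in controls, so the same 2 animals were highest. Gbp5, an interferon-induced GTPase, had 1.24 and 1.19 CPM with Kuiyangling, 0.707 and 1.69 CPM with mesalazine, 1.82 and 6.36 CPM in the DSS model and 0.941 and 28.7 CPM in controls. Of 13 tested genes of the interferon-gamma axis, none was called in any of the 6 comparisons. Libraries of 9 of them lay wholly below the DSS model with Kuiyangling, where 21.1% of all genes did so. With mesalazine 9 also did, where 13.8% of all genes did so. In each case 1 axis gene lay wholly above. The median log2 difference of the 13 was -0.89 with Kuiyangling and -1.46 with mesalazine. The smallest p in the DSS model against controls belonged to Irf8, a myeloid interferon regulatory factor, at a log2 difference of 0.95 (SE 0.29; edgeR adjusted p = 0.201).

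Control 2, high in Cxcl9 and Cxcl10, was also the library high in B cell and follicle markers, at 103 CPM against 11.9 CPM in control 1, while DSS model 2 had 14.2 CPM of these markers against 13 CPM in DSS model 1. T and NK cell markers were at 47.5 CPM in DSS model 2 and 27.8 CPM in DSS model 1, and at 110 CPM in control 2 and 29.6 CPM in control 1. The part of these cells in the ligand levels was not tested. Cxcr3, the receptor of Cxcl9 and Cxcl10 on T cells, had 7 and 18 counts with Kuiyangling, 10 and 24 with mesalazine, 15 and 10 in the DSS model and 12 and 28 in controls, and its groups overlapped in all 6 comparisons.

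**Figure D5:**
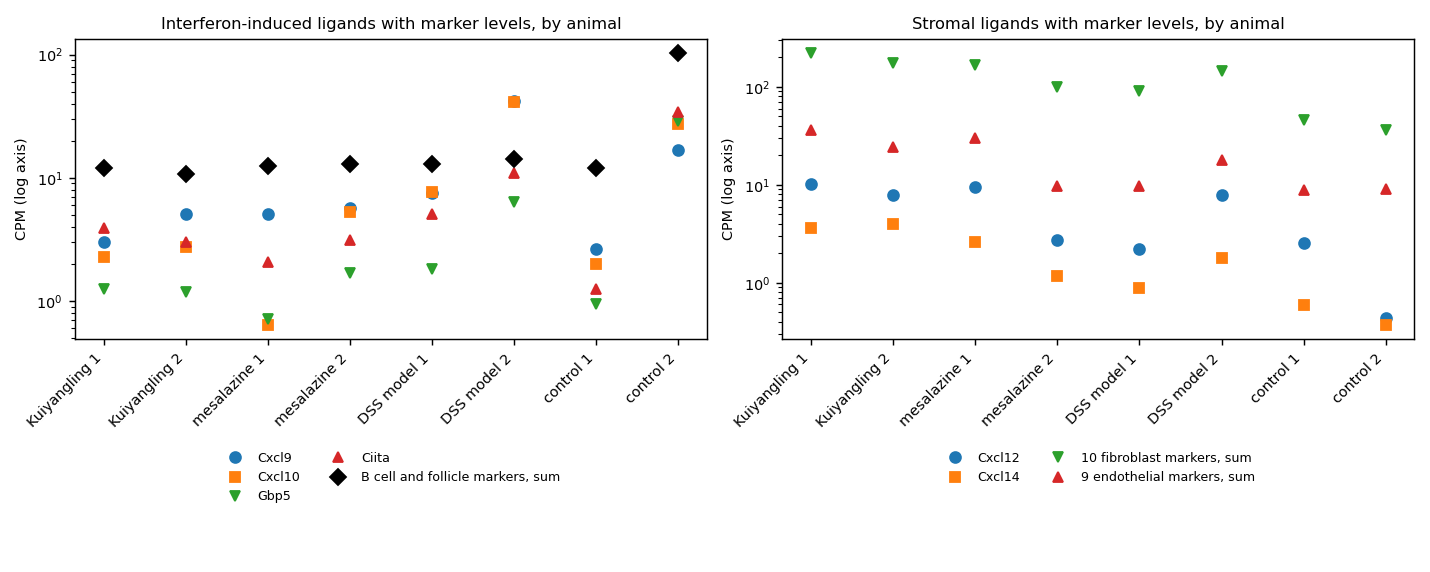
CPM on log axes in the 8 animals for Cxcl9 and Cxcl10 beside Gbp5, Ciita and the sum of 14 B cell and follicle markers (left), and for Cxcl12 and Cxcl14 beside the sums of 10 fibroblast and 9 endothelial markers (right). Cxcl9 and Cxcl10 are highest in DSS model 2 and control 2, of which only control 2 is high in B cell and follicle markers (103 CPM), and Cxcl12 and Cxcl14 are lowest in control 2, where the fibroblast sum is also lowest (36.5 CPM).

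Cxcl14 had its highest levels in Kuiyangling mice. It had 3.59 and 3.94 CPM in Kuiyangling mice, 2.62 and 1.17 CPM in mesalazine mice, 0.88 and 1.79 CPM in DSS model mice and 0.594 and 0.37 CPM in controls. The Kuiyangling libraries lay above the 6 others, and both controls lay below. The log2 difference was 1.49 between Kuiyangling and the DSS model (SE 0.58; edgeR adjusted p = 0.996; unadjusted 0.0267) and 2.93 between Kuiyangling and controls (SE 0.63; edgeR adjusted p = 0.092). The DSS model stood at 1.44 against controls (SE 0.64; edgeR adjusted p = 0.33).

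Cxcl12, the ligand of Cxcr4, had 10.1 and 7.94 CPM in Kuiyangling mice, 9.55 and 2.74 CPM in mesalazine mice, 2.2 and 7.95 CPM in DSS model mice and 2.53 and 0.431 CPM in controls. Kuiyangling and mesalazine mice both lay wholly above controls, at log2 differences of 2.57 (SE 0.85; edgeR adjusted p = 0.298) and 2.02 (SE 0.85; edgeR adjusted p = 0.226), and all 3 other groups overlapped with the DSS model. Between Kuiyangling and the DSS model it stood at 0.83 (SE 0.79), and between mesalazine and the DSS model at 0.27 (SE 0.80), or -0.90 without mesalazine 1. Its receptor Cxcr4 had 12 and 24 counts with Kuiyangling, 11 and 9 with mesalazine, 19 and 17 in the DSS model and 12 and 73 in controls, the last in the library high in B cell markers. Ackr3, its scavenger receptor, had 42 and 33 counts with Kuiyangling, 41 and 23 with mesalazine, 7 and 41 in the DSS model and 38 and 10 in controls.

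Sums of fibroblast and endothelial markers lay in a similar order to Cxcl12 and Cxcl14, and those of smooth muscle markers did not. Single markers were mixed. Between DSS model and controls, 8 fibroblast markers had log2 differences above 0 and 2 below, and 6 endothelial markers above and 3 below. The 10 fibroblast markers summed to 222 and 175 CPM in Kuiyangling mice, 169 and 100 CPM in mesalazine mice, 90.6 and 147 CPM in DSS model mice and 45.9 and 36.5 CPM in controls. The 9 endothelial markers summed to 35.9 and 24.6 CPM with Kuiyangling, 30.3 and 9.8 CPM with mesalazine, 9.68 and 17.9 CPM in the DSS model and 8.82 and 9.06 CPM in controls. The 6 smooth muscle markers summed to 56.7 and 53.5 CPM with Kuiyangling, 43.8 and 13.1 CPM with mesalazine, 13.8 and 31.7 CPM in the DSS model and 85.1 and 24 CPM in controls, where control 1 was highest. Of the 10 fibroblast markers, 1, the matrix proteoglycan Dcn, rose with mesalazine against controls (log2 difference 3.62, SE 0.64; edgeR adjusted p = 0.0414), where 0.433% of all genes rose, and none was called in the other comparisons. The part of stromal cells in the ligand levels was not tested.

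Cxcl13, the B cell attractant, had 3.34 and 3.32 CPM in Kuiyangling mice, 10.1 and 1.52 CPM in mesalazine mice, 1.76 and 3.25 CPM in DSS model mice and 1.39 and 3.08 CPM in controls. Mesalazine 1 was the highest library, and the DSS model and controls overlapped (log2 difference 0.17, SE 0.77; edgeR adjusted p = 0.923). The difference between mesalazine and the DSS model, 1.21, became -0.73 without mesalazine 1. Control 2, with its 103 CPM of B cell and follicle markers, had no more Cxcl13 than the Kuiyangling mice. Cxcr5, its receptor on B cells, had 6 and 16 counts in Kuiyangling mice, 6 and 3 in mesalazine mice, 11 and 9 in DSS model mice and 9 and 51 in controls, so control 2 was highest.

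Cxcl16 was the most even member. It had 23 and 18.9 CPM in Kuiyangling mice, 27.3 and 18.1 CPM in mesalazine mice, 15.7 and 24.3 CPM in DSS model mice and 8.22 and 23.7 CPM in controls. All groups overlapped, and the log2 difference between DSS model and controls was 0.33 (SE 0.46; edgeR adjusted p = 0.73). Its receptor Cxcr6 had 15 and 33 counts with Kuiyangling, 21 and 41 with mesalazine, 15 and 23 in the DSS model and 3 and 24 in controls. The enzymes that cut CXC ligands were not called in any comparison. Adam10 and Adam17 stood at log2 differences of 0.31 (SE 0.34) and -0.12 (SE 0.25) between DSS model and controls. Dpp4, the peptidase that trims Cxcl9, Cxcl10 and Cxcl12, stood at 0.36 with Kuiyangling (SE 0.32) and 0.88 with mesalazine (SE 0.32; edgeR adjusted p = 0.72) against the DSS model.

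The order of the members by mean FPKM differed between groups. In Kuiyangling mice Cxcl16 led at 14.7 ± 1.22 FPKM, clear of Cxcl13 at 3.01 ± 0.158, and Cxcl3 was lowest at 0.647 ± 0.126 FPKM. Between these, Cxcl5 (2.46), Cxcl10 (2.41), Cxcl14 (2.03), Cxcl1 (1.91), Cxcl9 (1.48), Cxcl2 (1.48) and Cxcl12 (1.32) each overlapped the next in FPKM. In mesalazine mice Cxcl16 led at 13.9 ± 1.84 FPKM and Cxcl5 was lowest at 0.724 ± 0.0166 FPKM. In DSS model mice Cxcl10 led at 21.4 ± 20.9 FPKM, overlapping Cxcl16 at 12.8 ± 4.18, followed by Cxcl2 at 9.97 ± 1.76 and Cxcl14 last at 0.656 ± 0.329 FPKM. In controls Cxcl10 led at 13.6 ± 16.3 FPKM, overlapping Cxcl16 at 11.1 ± 6.91, and every Cxcr2 ligand was at or below the 0.411 ± 0.249 FPKM of Cxcl1 (SD, n = 2 in each group).

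Likeness of pattern was measured as the mean absolute difference in log2 CPM, centred on the mean of the 8 libraries, among 12224 genes of at least 1 CPM on average. Among the members the 5 nearest pairs were Cxcl13 with Cxcl16 (0.417), Cxcl12 with Cxcl14 (0.466), Cxcl2 with Cxcl3 (0.666), Cxcl14 with Cxcl16 (0.669) and Cxcl9 with Cxcl10 (0.674). Outside the family, the genes nearest to Cxcl1 were Mmp9 (0.384), Il11 and Tnfaip2, those nearest to Cxcl2 were Retnlg (0.363), S100a8 and Mmp13, and those nearest to Cxcl3 were Retnlg (0.376), Clca4b and Saa3. Cxcl5 lay nearest to Inhba (0.441), Ptgs2 and Il1rl1. Cxcl9 lay nearest to Ms4a4c (0.345), Ido1 and Cd69, and Cxcl10 to Gm4841 (0.452), Gbp4 and Iigp1, of which Gbp4 and Iigp1 are interferon-induced GTPases. Cxcl12 lay nearest to Septin4 (0.2), Kdr and Mgp, Cxcl14 to Ltbp1 (0.185), Col5a1 and Fstl1, Cxcl13 to Ly86 (0.245), C1qa and Clec11a, and Cxcl16 to Aif1 (0.154), Lsp1 and Arap3. All these values share the same 8 libraries, and members that vary little have small distances to many genes.

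Of 5 further CXC ligands looked for, 3 were in the tables. Pf4, a platelet factor, had 42 and 18 counts in Kuiyangling mice, 38 and 5 in mesalazine mice, 42 and 20 in DSS model mice and 11 and 13 in controls (log2 difference between DSS model and controls 1.56, SE 0.92; edgeR adjusted p = 0.423). Ppbp, also of platelets and a Cxcr2 ligand after processing, had 6 and 0 counts with Kuiyangling, 2 and 0 with mesalazine, 10 and 1 in the DSS model and 0 in controls. Cxcl17 had at most 1 count in any library. Cxcl11, Cxcl15, Cxcr1 and Ackr1 were looked for by symbol and not found, so they were not analysed here. Of the 10 members, 7 lie on mouse chromosome 5 (Cxcl1, Cxcl2, Cxcl3, Cxcl5, Cxcl9, Cxcl10 and Cxcl13), with Cxcl12 on chromosome 6, Cxcl14 on 13 and Cxcl16 on 11. The 3 genes called in the DSS model lie on chromosome 5, as do Cxcl1, Cxcl9, Cxcl10 and Cxcl13, which were not called.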

How the data were processed

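RNA of colonic mucosa was sequenced from 8 mice, 2 separate animals per group per the labels. The labels' protocols name mirVana extraction, an RIN of at least 7 and TruSeq stranded mRNA libraries. The authors' counts are whole reads per gene. The submitters' processing notes name Trimmomatic and HISAT2 but give no version and no role for either. The build, the annotation, the counting tool and its strand setting are not given in the sources used here. The deposited FPKM values equal counts over gene length and library total, as checked on the values. The mesalazine columns were spelled differently and were taken by their replicate number.

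With edgeR 4.0.16 (R 4.3.3), genes passing filterByExpr by group (13381 of 17353) were tested after TMM scaling in a quasi-likelihood model of all 8 libraries and 4 group means. The labels state no design, and 2 animals per group give little precision (common biological coefficient of variation 0.287, prior degrees of freedom 6.02). P-values were adjusted by Benjamini-Hochberg over all genes tested and called under 0.05. An SE is the absolute log2 difference divided by the root of F. CPM use TMM-adjusted library sizes, and log2 CPM a prior count of 2. Folds against 0 counts are bounds against 3 counts over the group, and against 1 to 3 counts they are ratios with exact binomial 95% intervals. Intervals and floors cover counting error only. Methods were tested on simulated counts. Alternatives used limma 3.58.1 on FPKM, DESeq2 1.42.0, other scaling and filters, a gene length correction, a replicate block and leaving out each library.

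Named genes were the 10 members, all further ligands, receptors and processing enzymes in the tables, per other list the 2 genes with the smallest p in DSS model against control plus any called gene, and the 3 genes nearest each member in pattern. Some are left out of the text. Genes outside this rule were also named, among them Tnf, Il17a and some genes of the interferon-gamma axis. The members and lists were chosen with earlier results of these data known. Promoter sequences are from RefSeq (GRCm38.p6), as are the chromosomes.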

Additional observations from a re-analysis of the deposited data

How the results depend on the processing

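The 60 log2 differences of the 10 members in 6 comparisons were recomputed in 17 alternatives: 908 values kept direction and side of the threshold, 36 dropped out of a call, 23 entered one and 52 changed sign. The cause of these changes was not tested, except that fits of fewer libraries have fewer degrees of freedom. Of the alternatives, limma on log2(FPKM + 0.1) moved the median of all genes by over 0.1 in 4 comparisons: to -0.18 between DSS model and control, -0.20 between mesalazine and control, 0.14 between Kuiyangling and the DSS model and 0.17 between Kuiyangling and mesalazine. The same fit without the filter gave the same medians, and a pseudocount of 1 moved 2 of the 4 by over 0.1, to -0.13 and 0.11 for mesalazine over control and Kuiyangling over mesalazine.

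Genes called between DSS model and control numbered 33, against 487 without the filter on low counts, 435 by DESeq2, 19 by limma with a pseudocount of 1 and 16 by limma with 0.1 and no filter, and 1 to 159 with 1 library left out. Members called there numbered 3, and 0 to 4 with 1 library left out. Between Kuiyangling and control, the 32 genes became 451, 349, 7 and 6 in the same order, 19 with only 4 libraries and 1 to 171 with 1 library left out. The 2 members became 5 without the filter and by DESeq2, 1 by both of these limma fits and by the length correction, 0 with only 4 libraries and 0 to 2 with 1 library left out. Between mesalazine and control, the 90 genes became 1090, 982, 11 and 18 in the same order, 57 by limma with a pseudocount of 0.1, 315 with only 4 libraries, 37 by the length correction and 1 to 2717 with 1 library left out. The 3 members became 5 without the filter, 0 by limma with a pseudocount of 1, and 0 to 6 with 1 library left out. Between Kuiyangling and the DSS model, the 0 genes became 11 without the filter, 13 by DESeq2 and 21 with only 4 libraries, and 1 member was called in each. Between mesalazine and the DSS model, 104 genes without the filter and 91 by DESeq2 were called, with 1 member in each. Between Kuiyangling and mesalazine, 3 genes were called without the filter.

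A replicate block gave 50 calls between DSS model and control and 65 between Kuiyangling and control. The labels give no pairing behind the numbers. The correlation of replicate differences between groups ran from -0.311 to 0.162. Each group gave a single replicate difference, so these values cannot decide whether samples with the same number were paired.

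Signs changed mainly in members near 0. Between Kuiyangling and mesalazine, Cxcl1 went to 0.44 with the length correction and to 0.18, 0.12 and 0.18 by limma with a pseudocount of 0.1, of 1 and of 0.1 without the filter. Cxcl16 went to 0.15, 0.08, 0.07 and 0.08 in the same settings. In these limma fits the median of all genes was at 0.17, 0.11 and 0.17, so Cxcl1 lay near it and Cxcl16 below it. Cxcl10 went to 0.53, 0.19 and 0.53 by limma and to 0.52 with the block. Between mesalazine and the DSS model, Cxcl3 went to -0.27 with the length correction, to -0.14, -0.08 and -0.14 by limma and to -0.08 with the block, and Cxcl12 to -0.05 with the block. Between DSS model and control, the length correction gave -0.33 for Cxcl13 and -0.03 for Cxcl16.

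With 1 library left out, log2 differences that changed sign ranged as follows. For the DSS model over control, the ranges were Cxcl9 -0.36 to 3.23, Cxcl10 -0.91 to 3.62, Cxcl13 -0.33 to 0.85, Cxcl16 -0.25 to 1.28, Cxcr5 -2.28 to 0.53 and Cxcr4 -1.95 to 0.96. For Kuiyangling over the DSS model, the ranges were Cxcl16 -0.22 to 0.41. For mesalazine over the DSS model, the ranges were Cxcl3 -0.90 to 0.57, Cxcl12 -0.90 to 1.47, Cxcl13 -0.73 to 2.01, Cxcl14 -0.20 to 1.09 and Cxcl16 -0.16 to 0.53. For Kuiyangling over mesalazine, the ranges were Cxcl1 -0.41 to 0.50, Cxcl10 -1.08 to 1.98, Cxcl12 -0.08 to 1.71, Cxcl13 -1.60 to 1.12 and Cxcl16 -0.38 to 0.21. For Kuiyangling over control, the ranges were Cxcl9 -2.05 to 0.63, Cxcl10 -3.45 to 0.35 and Cxcl16 -0.18 to 1.35. For mesalazine over control, the ranges were Cxcl9 -1.66 to 1.03, Cxcl10 -4.50 to 0.61, Cxcl13 -0.55 to 2.19 and Cxcl16 -0.08 to 1.46.

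Depth limits Cxcl3, Cxcl5 and Cxcr2: 0 counts in a control allow up to 0.149 and 0.185 CPM.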
